A study of Homo sapiens with 6 samples.

Results

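The genes described here are 34 genes of the amino acid response driven by the transcription factor ATF4 and of serine, proline and one-carbon synthesis. They were taken by gene symbol, amino acid transporters and tRNA synthetases were left out, and all 34 were among the 19846 genes of the table. Messenger RNA was measured in HepG2, a human liver tumour cell line at passages 7 to 9, in 3 samples grown in 6-well plates (2D) and 3 grown in a bioreactor of interwoven hollow fibers (3D), at 37 °C and with 5% CO2 in both. The 2D cells, seeded at a density of 200000 per square centimetre, received fresh EMEM every 2 days. In the bioreactor the medium was EMEM and DMEM in equal parts with FBS (10%), GlutaMAX, a stable source of glutamine (1%), and the antibiotics Penicillin-Streptomycin (1%). It recirculated at 23.5 mL/min with a feed of 2 mL/hour and a supply of 95% air and 5% CO2 at 200 mL/min. Culture form, medium, feeding and gas supply changed together and cannot be told apart, and no source used here gives the serum on the plates, the length of culture or the amino acid content of the media. Whether replicates were separate cultures is not stated, so every p-value below reflects variation among samples that may be technical.

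When amino acids run short or proteins misfold in the endoplasmic reticulum, kinases phosphorylate the initiation factor eIF2, which slows general translation while the messenger of ATF4 is translated more. ATF4 then pairs with other basic leucine zipper proteins, such as the C/EBP family, and activates genes that import, make and load amino acids. Among them are the enzymes that make serine and pass its one-carbon unit to folate, in a mitochondrial and a cytosolic branch. Much of the control of ATF4 lies in translation, so its own messenger is an incomplete measure of its activity.

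Promoter sequences are shown for members that hold the core of the C/EBP-ATF response element, the DNA site of such pairs. The core searched was TGATGNAA on either strand, in windows of 250 bases before to 50 bases after the start site (RefSeq, GRCh38.p14, the same build as hg38, which the table uses). Of the 34 members 28 had a window, and 6 of these (21.4%) held the core, against 4.46% of 27305 genes with a window. The entries not matched were PYCR1, GPT2, NUPR1, PSPH, ALDH1L2 and SHMT2. Many members were listed because they are known ATF4 targets, so the share is a description of the list and no test was made. The sequences run 5′ to 3′ along the gene, with the core in capitals.
ASNS, chr7:97872359-97872658, minus strand, core 68 bases before the start site: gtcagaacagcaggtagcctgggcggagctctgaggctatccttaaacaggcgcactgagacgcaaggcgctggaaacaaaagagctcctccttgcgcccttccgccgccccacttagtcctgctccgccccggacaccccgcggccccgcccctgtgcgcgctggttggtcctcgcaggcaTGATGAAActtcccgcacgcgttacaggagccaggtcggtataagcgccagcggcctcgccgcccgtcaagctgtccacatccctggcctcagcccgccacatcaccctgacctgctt
CEBPG, chr19:33374031-33374118, plus strand, core 42 bases before the start site: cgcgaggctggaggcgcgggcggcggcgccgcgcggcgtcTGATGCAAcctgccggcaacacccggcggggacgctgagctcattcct
JDP2, chr14:75427966-75428053, plus strand, core 16 bases before the start site: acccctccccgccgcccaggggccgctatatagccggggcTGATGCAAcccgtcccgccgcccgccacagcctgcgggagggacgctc
MTHFD1L, chr6:150866317-150866404, plus strand, core 129 bases before 1 of its start sites: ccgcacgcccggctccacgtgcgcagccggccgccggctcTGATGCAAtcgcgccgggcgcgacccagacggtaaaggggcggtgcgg
ASNS, CEBPG and JDP2 fell in 3D, and MTHFD1L did not pass the test, as described below. The other members with the core, on the strand opposite to the gene, were CHAC1 and FGF21, both too low to test. Beyond ASNS, CEBPG and JDP2, none of the 22 members called lower held the core, and some of them had no window. Whether the core has a part in the falls was not tested.

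The members were mostly lower in 3D. Of 32 members that passed the filter on low counts, 22 fell and 3 rose in 3D at an edgeR adjusted p under 0.05, and 7 did not pass. Of all 15314 genes tested, 17.6% were called lower and 19.0% higher, 36.6% in either direction. The members were chosen with earlier results of these data known, so their shares describe the list, and no test of the list was made. The median log2 fold change of the members was −0.81, beside 0.02 for all genes tested. In 11 of the 32 the log2 fold change of a called fall was −1 or below, as in 4.49% of all genes tested. In 22 of the 32 members every 3D library lay below every 2D library, as in 24.9% of all genes tested, and in 4 every 3D library lay above, as in 25.6%. By role, members of asparagine, alanine and phosphoenolpyruvate metabolism (3 of 3), transsulfuration (2 of 2) and the measured secreted factors and receptor (3 of 3) fell, while 2 of 3 cytosolic one-carbon enzymes and 1 of 2 proline enzymes rose. Levels are given as CPM, the count as a share of its TMM-scaled library total, with the 3 libraries of a group in the order of their replicate numbers. In bulk RNA, fewer cells expressing a gene and less RNA of it per cell cannot be told apart.

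**Figure D1:**
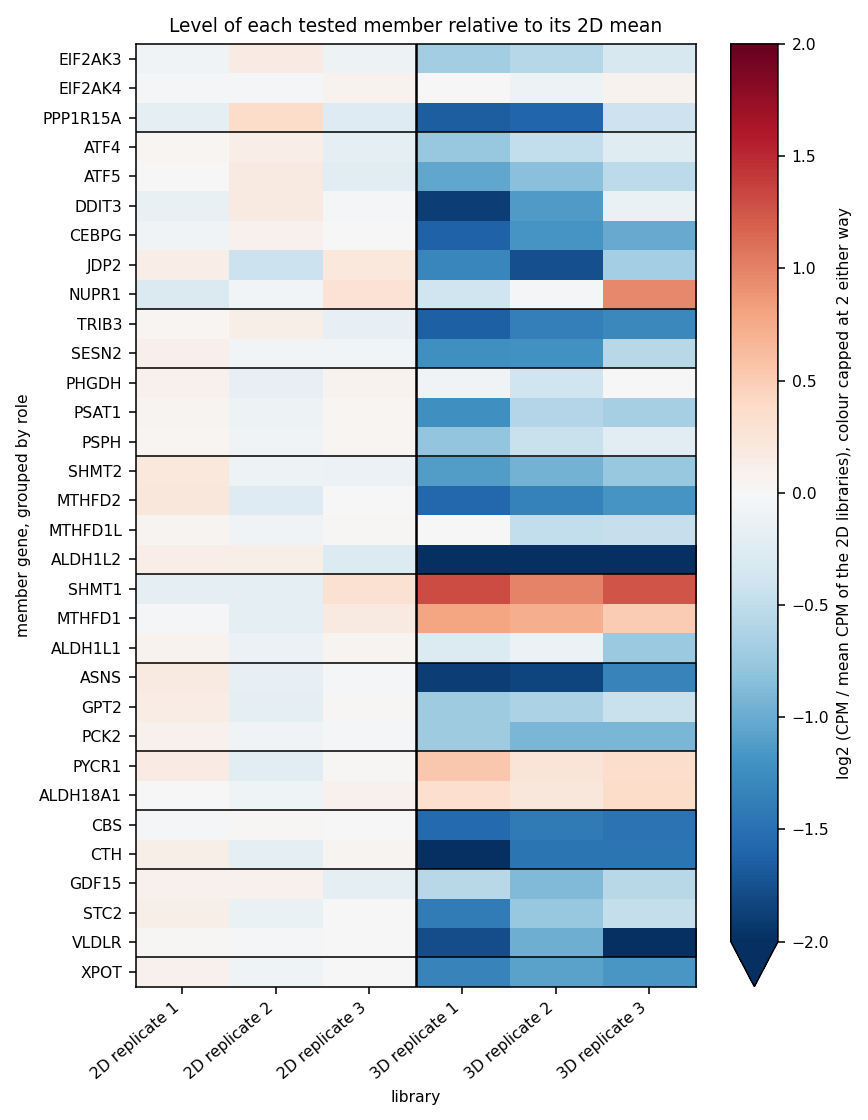
Heat map of the 32 tested members (rows, grouped by role) in the 6 libraries (columns); colour is the log2 ratio of a library's CPM to the mean of the 2D libraries, capped at 2 either way. Most rows are blue in the 3D columns, while SHMT1, MTHFD1, PYCR1 and ALDH18A1 are red in all 3, and 3D replicate 3 is the palest 3D library in many rows.

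The 3 bioreactor libraries were not alike in the extent of the difference. Relative to the 2D mean, the median log2 level of the tested members was −1.08 in 3D replicate 1, −0.86 in replicate 2 and −0.54 in replicate 3, where the same median over all genes lay between −0.0046 and 0.012. 3D replicate 3 held the highest 3D value for 21 of 32 members (65.6%, against 29.5% of all genes tested), and 3D replicate 1 the lowest for 20 (62.5%, against 38.2%). 3D replicate 1 also had the fewest counts, 9530795, where the other libraries had 14522918 to 17943513. Without the doubted libraries, 3D replicate 1 and 2D replicate 2, the latter of which had the lowest plate level of each of the 6 growth markers, 19 members fell and 2 rose, with a median log2 fold change of −0.68.

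Of the defining markers of other cell types, COL1A2, DCN, LUM, PDGFRA, KDR, PTPRC and HBB were not among the genes of the table. The listed fibroblast markers that were present were THY1, too low to test, and PDGFRB. PDGFRB fell from 10.6 to 3.21 CPM (log2 −1.71, edgeR adjusted p = 0.00065). The summed level of the listed fibroblast markers was 7.03 to 14.0 CPM in 2D and 2.98 to 3.75 CPM in 3D. That of endothelial markers was 2.00 to 5.49 CPM over all libraries. The 8 hepatocyte markers were all present, with a sum of 36647 to 41173 CPM in 2D and 27389.8 to 43250.4 CPM in 3D. Among them APOB, an apolipoprotein of very low density lipoprotein, fell from 17756 to 6631 CPM (log2 −1.42, edgeR adjusted p = 0.000614), APOA1, an apolipoprotein of high density lipoprotein, rose from 1232 to 3219 CPM (log2 1.39, edgeR adjusted p = 0.000183), and the other 6 did not pass the test. CD68, a lysosomal protein of macrophages and of other cells, rose from 7.62 to 32.0 CPM. LYZ, lysozyme, did not pass the test, with means of 1276 and 722 CPM (log2 −0.82, edgeR adjusted p = 0.0555). The summed level of the 3 listed blood markers, CD14, LYZ and CD68, was 979.6 to 1476 CPM in 2D and 436 to 1015 CPM in 3D. Of 6 growth markers 4 rose (PCNA, MCM2, TYMS and CCNB1), and their sum was 420.5 to 993 CPM in 2D and 1251 to 1422 CPM in 3D. The part of the growth markers in the differences described here was not tested.

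Upstream of ATF4, 1 of the 2 eIF2 kinases among the members fell and the other did not pass the test. Further eIF2 kinases are outside the members and are counted with their list below. EIF2AK3, the kinase PERK that senses misfolded proteins in the endoplasmic reticulum (chromosome 2, 88556741 to 88627577, minus strand, hg38), was at 47.2, 55.3 and 46.4 CPM in 2D and at 30.7, 33.4 and 39.8 CPM in 3D. The groups did not overlap, and the log2 fold change was −0.52 (SE 0.14, edgeR adjusted p = 0.014). This call was lost with transcript length and GC content corrected (log2 −0.32, edgeR adjusted p = 0.0934). Without 2D replicate 2 the edgeR adjusted p was 0.0622, and without both doubted libraries 0.0858. With the replicate number as a block and length and GC content corrected together, the edgeR adjusted p was 0.119. EIF2AK4, the kinase GCN2 that senses uncharged tRNA, had a mean of 84.2 ± 3.92 CPM on plates and 83.5 ± 5.22 CPM in the bioreactor (here and below SD, n = 3 per group), with a 95% interval of the log2 difference from −0.26 to 0.24.

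PPP1R15A, the GADD34 protein that directs a phosphatase to eIF2 and so ends the response, stood at 114, 167 and 108 CPM in 2D. In 3D it stood at 41.4, 43.2 and 97.0 CPM, so that 3D replicate 3 lay just below the lowest plate library and far above the other 3D libraries. It fell 2.13-fold (log2 −1.09, SE 0.34, edgeR adjusted p = 0.0398). The call was lost in the fits without any 1 of the libraries other than 3D replicate 3, and without both doubted libraries (log2 −0.68, edgeR adjusted p = 0.204). Those 5 fits gave PPP1R15A an edgeR adjusted p between 0.066 and 0.132. With the replicate number as a block the edgeR adjusted p was 0.0938, and with no filter on low counts 0.0727.

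Among the transcription factors, ATF4 itself (chromosome 22, 39519695 to 39522686, plus strand) was at 775, 824 and 659 CPM in 2D and at 444, 536 and 635 CPM in 3D. Every 3D library lay below the plates, with 3D replicate 3 close to the lowest of them. ATF4 fell 1.40-fold (log2 −0.48, SE 0.16, edgeR adjusted p = 0.0311). The call was lost without 2D replicate 1 or 2 and without 3D replicate 1 or 2, at an edgeR adjusted p of 0.0996, 0.107, 0.0568 and 0.0728, and without both doubted libraries (log2 −0.31, edgeR adjusted p = 0.173). In the other 12 of 17 alternative analyses the call of ATF4 was kept. Its log2 fold change ranged from −0.84 to −0.31 over all 17. Pseudogenes named after ATF4 were at 1.27 to 2.34 CPM in the group means.

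ATF5, a related factor whose translation is also favoured under stress, fell from 67.9 ± 9.08 to 39.4 ± 7.25 CPM. CEBPG, a partner of ATF4 on its target sites (chromosome 19, 33373330 to 33382687, plus strand), was at 152, 169.9 and 159 CPM in 2D and at 52.2, 70.4 and 79.7 CPM in 3D. Every 3D library lay far below the lowest plate library, and the 3D mean was 42.0% of the plate mean. CEBPG fell 2.37-fold (log2 −1.25, SE 0.15, edgeR adjusted p = 0.000192). JDP2, a repressing leucine zipper protein (chromosome 14, 75427716 to 75474112, plus strand), was at 19.5, 13.3 and 20.8 CPM in 2D and at 7.24, 5.30 and 11.2 CPM in 3D. The groups did not overlap, and JDP2 fell 2.26-fold (log2 −1.18, SE 0.27, edgeR adjusted p = 0.00692). An antisense RNA that overlaps JDP2, RP11-293M10.6, fell from 1.70 to 0.390 CPM.

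DDIT3, the factor CHOP of prolonged stress, and NUPR1, a small stress-induced nuclear protein, did not pass the test. DDIT3 stood at 26.2, 33.1 and 28.3 CPM in 2D and at 7.93, 13.4 and 26.7 CPM in 3D, so that 3D replicate 3 lay within the plate range. Its log2 difference was −0.85 (SE 0.36, edgeR adjusted p = 0.102), and without 3D replicate 3 it was −1.44 (edgeR adjusted p = 0.00211). DESeq2, limma-voom, the replicate block and the correction for length and GC content also called it lower, with adjusted p of 0.0173, 0.0496, 0.0364 and 0.0386. DDIT3 overlaps MARS on the opposite strand, which fell from 249 to 115 CPM, and with strand handling not given the reads of the shared stretch cannot be told apart. NUPR1 was at 12.9, 15.2 and 19.1 CPM in 2D and at 12.0, 15.4 and 30.6 CPM in 3D. Its log2 difference of 0.30 (edgeR adjusted p = 0.491) was −0.20 without 3D replicate 3, which held its highest value.

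Of the intracellular effectors, TRIB3, a pseudokinase that restrains the response (chromosome 20, 362835 to 397560, plus strand), was at 514, 545 and 450.2 CPM in 2D. In 3D it was at 162, 194 and 207 CPM, far below every plate library, with a mean of 37.3% of the plate mean. TRIB3 fell 2.68-fold (log2 −1.42, SE 0.14, edgeR adjusted p = 6.08e-05). SESN2, which restrains the growth kinase complex mTORC1 when leucine is scarce, fell from 65.9 ± 4.14 to 33.9 ± 9.70 CPM (log2 −0.96, SE 0.18). CHAC1, which degrades glutathione, had 7, 5 and 5 counts in the 2D libraries and 0, 2 and 3 in the 3D libraries and was too low to test.

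**Figure D2:**
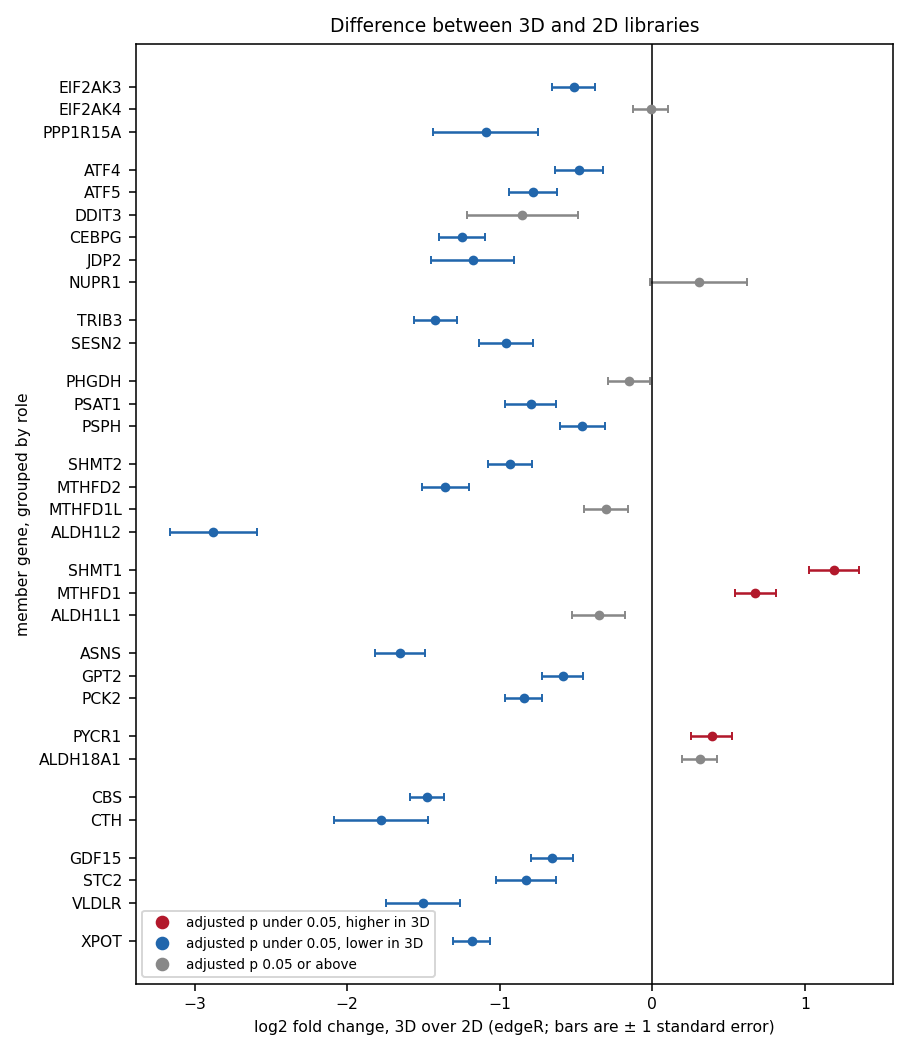
Log2 fold change, 3D over 2D, of each tested member (points, grouped by role) with ± 1 standard error from the edgeR fit on 3 against 3 libraries; blue and red mark an adjusted p under 0.05. ALDH1L2 lies farthest to the left at −2.88, and SHMT1 farthest to the right at 1.19.

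Serine is made from a glycolytic intermediate in 3 steps. The first enzyme, PHGDH, did not pass the test, with 204 ± 19.8 CPM on plates, 184 ± 26.2 CPM in the bioreactor and a 95% interval of the log2 difference from −0.45 to 0.15. With transcript length and GC content corrected it was called lower (log2 −0.44, edgeR adjusted p = 0.0152). PSAT1, the second enzyme, a transaminase (chromosome 9, 78297143 to 78330094, plus strand), was at 532, 476 and 523 CPM in 2D and at 218, 341 and 321 CPM in 3D. The groups did not overlap, and PSAT1 fell 1.74-fold (log2 −0.80, SE 0.17, edgeR adjusted p = 0.00345). PSPH, the last enzyme, fell from 105 ± 4.68 to 76.3 ± 15.0 CPM (log2 −0.46, edgeR adjusted p = 0.0284). Its call was lost without 2D replicate 1, 2D replicate 3 or 3D replicate 2 (0.0904, 0.0778 and 0.0558) and without both doubted libraries (0.0623).

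Of the one-carbon enzymes 3 of 4 in mitochondria fell, and 2 of 3 in the cytosol rose. In mitochondria SHMT2 takes the one-carbon unit from serine, MTHFD2 oxidises it, MTHFD1L releases it as formate and ALDH1L2 burns it to carbon dioxide. SHMT2 fell from 396 ± 52.0 to 207 ± 25.9 CPM (log2 −0.93, SE 0.14). MTHFD2 (chromosome 2, 74198562 to 74217566, plus strand) was at 534, 383 and 458 CPM in 2D and at 154, 179 and 203 CPM in 3D. It fell 2.56-fold, without overlap between the groups (log2 −1.36, SE 0.16, edgeR adjusted p = 0.000139). ALDH1L2 (chromosome 12, 105019784 to 105084578, minus strand) was at 18.8, 18.6 and 14.2 CPM in 2D and at 1.19, 2.33 and 3.30 CPM in 3D. With a mean in 3D of 13.2% of the plate mean, this was the largest relative fall among the tested members (log2 −2.88, SE 0.28, edgeR adjusted p = 6.80e-05).

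MTHFD1L, the 1 mitochondrial enzyme that did not pass the test, was at 90.9, 84.0 and 89.0 CPM in 2D and at 87.7, 62.3 and 63.8 CPM in 3D. 3D replicate 1 lay within the plate range and the other 3D libraries lay below it. Its log2 difference was −0.31 (edgeR adjusted p = 0.117), and −0.49 without 3D replicate 1 (edgeR adjusted p = 0.00518).

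In the cytosol SHMT1 interconverts serine and glycine, MTHFD1 carries out the 3 folate reactions between formate and methylene-folate, and ALDH1L1 disposes of formyl-folate. SHMT1 (chromosome 17, 18327860 to 18363564, minus strand) was at 21.0, 21.2 and 29.6 CPM in 2D and at 59.2, 47.7 and 57.2 CPM in 3D. It rose 2.28-fold, without overlap between the groups (log2 1.19, SE 0.16, edgeR adjusted p = 0.000347). SMCR8, which overlaps SHMT1 on the opposite strand, fell from 80.9 to 42.6 CPM. MTHFD1 (chromosome 14, 64388031 to 64463458, plus strand) was at 60.3, 53.6 and 69.0 CPM in 2D and at 105, 100.5 and 86.7 CPM in 3D. It rose 1.60-fold (log2 0.67, SE 0.13, edgeR adjusted p = 0.00266). ALDH1L1, at 21.5 ± 1.54 and 16.9 ± 3.55 CPM, did not pass the test (log2 −0.35, edgeR adjusted p = 0.136), and a correction for length and GC content called it lower (log2 −0.55, edgeR adjusted p = 0.0322).

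The ratio of counts of a mitochondrial gene to its cytosolic counterpart within a library does not depend on the scaling between libraries. It was not corrected for transcript length or GC content, with which fold changes moved across genes (Spearman −0.383 and 0.317). Lengths differed within pairs, with 7547 and 3277 bases for ALDH1L2 and ALDH1L1, and 4456 and 6814 bases for MTHFD2 and MTHFD1. The part of length and GC content in the ratios was not tested. The log2 ratio of SHMT2 to SHMT1 was 4.43, 4.11 and 3.61 in 2D and 1.62, 2.10 and 2.03 in 3D. The ratio was thus 4.39 times lower in the 3D libraries, which did not overlap the plates. The ratio of MTHFD2 to MTHFD1 was 4.09 times lower, that of MTHFD1L to MTHFD1 2.00 times lower and that of ALDH1L2 to ALDH1L1 5.87 times lower, with no overlap between the cultures in any of these pairs. The exact two-sided permutation p was 0.1 for each of them, the smallest that 3 against 3 samples allow. After adjustment over the 7 pairs of isozymes compared, 6 of which are described, this permutation p was 0.117, so the design could not reach 0.05. SHMT2 and MTHFD2 lay below the plates, and SHMT1 and MTHFD1 above them, in every 3D library. The separation of their ratios follows from those levels and is no separate support. The ratios of MTHFD2 and MTHFD1L also share MTHFD1. Per kilobase of the longest coding transcript, the mean level of SHMT2 was 16.1 times that of SHMT1 in 2D and 3.68 times in 3D. The mean level of MTHFD2 per kilobase was 11.5 times that of MTHFD1 in 2D and 2.81 times in 3D. On this scale the mitochondrial forms of these pairs were still the more abundant in 3D, whereas ALDH1L2 was below ALDH1L1 in both cultures.

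**Figure D3:**
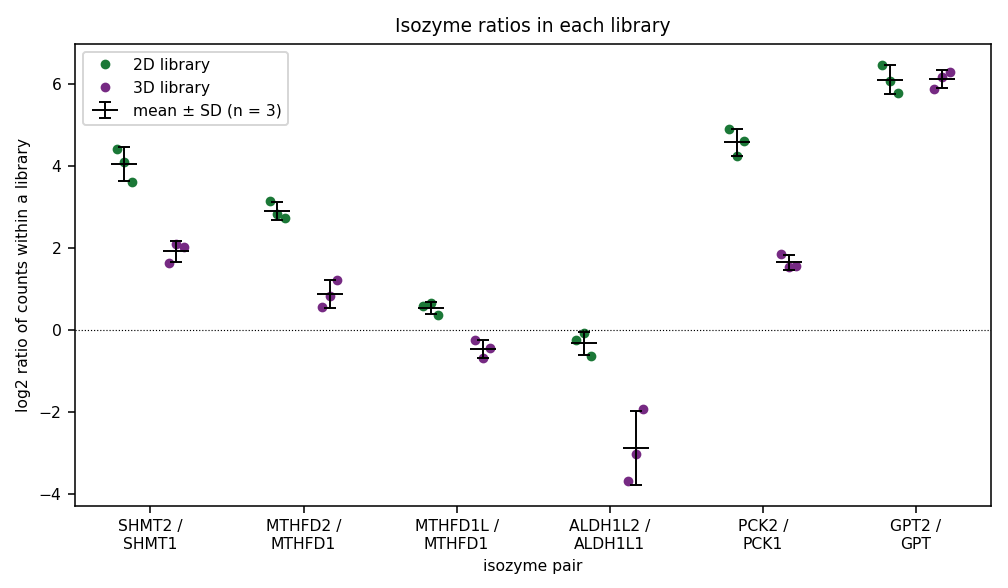
Log2 ratio of counts (2 added to each count) of 6 isozyme pairs in each of the 3 plate (green) and 3 bioreactor (purple) libraries, with the mean ± SD of each group. The 4 mitochondrial to cytosolic folate pairs and PCK2 to PCK1 lie lower in every 3D library than in any 2D library, while GPT2 to GPT overlaps.

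Among enzymes of asparagine, alanine and phosphoenolpyruvate, ASNS, asparagine synthetase and a much used readout of ATF4 (chromosome 7, 97852118 to 97872543, minus strand), was at 202, 160.0 and 175 CPM in 2D. In 3D it was at 48.7, 50.1 and 71.2 CPM, far below every plate library. ASNS, whose promoter is shown above, fell 3.15-fold (log2 −1.66, SE 0.16, edgeR adjusted p = 6.65e-05). GPT2, the mitochondrial alanine transaminase, fell from 325 ± 38.9 to 217 ± 20.6 CPM. The ratio of GPT2 to its cytosolic form GPT overlapped between the cultures, with a mean log2 ratio of 6.12 ± 0.35 in 2D and 6.13 ± 0.22 in 3D (SD, n = 3, exact permutation p = 1.0). PCK2, the mitochondrial phosphoenolpyruvate carboxykinase, fell from 359 ± 21.4 to 200.4 ± 16.4 CPM. Its cytosolic form PCK1, an enzyme of glucose production outside the 34 genes, rose from 15.0 ± 2.71 to 63.7 ± 2.91 CPM. The ratio of PCK2 to PCK1 was 7.65 times lower in 3D (exact permutation p = 0.1), which follows from these levels and is no separate support.

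Of the 2 proline enzymes 1 was called higher. PYCR1, the mitochondrial reductase that completes proline (chromosome 17, 81932384 to 81942413, minus strand), was at 244, 189 and 223 CPM in 2D and at 318, 262 and 279 CPM in 3D. Its groups did not overlap, and the log2 fold change was 0.39 (SE 0.14, edgeR adjusted p = 0.0418). This call was fragile: with transcript length and GC content corrected the log2 difference was −0.06 (edgeR adjusted p = 0.728). With the replicate block as well, the log2 difference was −0.05. The call was also lost without 2D replicate 1, 2 or 3, at an edgeR adjusted p of 0.061, 0.216 and 0.101. Without 3D replicate 1 or 3 the edgeR adjusted p was 0.0958 and 0.0728. Without both doubted libraries it was 0.292 (log2 0.20), and with no filter on low counts 0.0616. ALDH18A1, which makes the precursor of proline and ornithine, was at 189, 179 and 201 CPM in 2D and at 239.7, 222 and 244 CPM in 3D. Its groups did not overlap either, at a log2 difference of 0.31 (SE 0.11, edgeR adjusted p = 0.0525), and DESeq2, limma-voom and 5 other alternatives called it higher, with adjusted p from 0.0374 to 0.048.

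Both enzymes of transsulfuration, which turns homocysteine into cysteine, fell. CBS, which joins homocysteine and serine (chromosome 21, 43053191 to 43076944, minus strand), was at 149.6, 157 and 154 CPM in 2D and at 52.2, 57.7 and 55.3 CPM in 3D. The libraries of each group lay close together, and CBS fell 2.79-fold (log2 −1.48, SE 0.11, edgeR adjusted p = 1.89e-05). CBSL, a near-identical copy of CBS whose reads may be split from it, had means of 3.90 CPM on plates and 3.72 CPM in the bioreactor. CTH, which releases cysteine (chromosome 1, 70411218 to 70439852, plus strand), was at 28.2, 22.7 and 27.0 CPM in 2D and at 3.37, 9.43 and 9.42 CPM in 3D. CTH fell 3.43-fold (log2 −1.78, SE 0.31, edgeR adjusted p = 0.00203), with no 3D library near the plates.

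The secreted factors and the receptor fell where they could be tested. GDF15, a stress hormone that acts on appetite, fell from 375 ± 40.2 to 238 ± 29.1 CPM. STC2, a secreted glycoprotein, fell from 216 ± 17.7 to 122 ± 36.6 CPM. VLDLR, a lipoprotein receptor induced by ATF4 (chromosome 9, 2621834 to 2660054, plus strand), was at 18.0, 17.1 and 17.8 CPM in 2D and at 5.16, 8.98 and 4.36 CPM in 3D. It fell 2.83-fold, without overlap (log2 −1.50, SE 0.24, edgeR adjusted p = 0.000829). FGF21, a liver hormone of fasting, had 5, 8 and 5 counts in 2D and 0, 2 and 1 in 3D and was too low to test.

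XPOT, the exporter of tRNA from the nucleus (chromosome 12, 64404350 to 64451128, plus strand), was at 338, 299 and 315 CPM in 2D and at 126, 151 and 141 CPM in 3D. The 3D libraries lay far below every plate library. XPOT fell 2.27-fold (log2 −1.18, SE 0.12, edgeR adjusted p = 7.72e-05). A pseudogene named after it, XPOTP1, fell from 4.51 to 1.97 CPM.

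Further members share part of their locus with a gene on the opposite strand, whose reads cannot be told apart there. NUP62, which overlaps ATF5, rose from 64.1 to 89.7 CPM, and NDUFA4L2, which overlaps SHMT2, rose from 0.551 to 3.40 CPM, both against the direction of the member. C12orf45, which overlaps ALDH1L2, had means of 12.8 and 16.5 CPM and ZBTB25, which overlaps MTHFD1, had means of 10.9 and 12.5 CPM, and neither passed the test. NRL, which overlaps PCK2, fell from 5.33 to 3.22 CPM.

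Levels per kilobase of the longest coding transcript, and the ranks by them, depend on that choice of transcript. On this scale ATF4 was the most abundant member in both cultures, at 373 ± 41.9 RPKM in 2D and 267 ± 47.4 RPKM in 3D. GDF15 followed at 312 ± 33.5 and 198 ± 24.2 RPKM. In each culture the levels of ATF4 and GDF15 were within the sum of their SDs of each other, though ATF4 was the higher in every library. PSAT1, TRIB3 and SHMT2 came next in 2D, at 233, 201 and 156 RPKM. In 3D PYCR1 held rank 3 at 150.4 ± 15.0 RPKM, from rank 7 in 2D, while TRIB3 moved from rank 4 to 7. PYCR1 and PSAT1, at 134 ± 30.2 RPKM in 3D, differed by less than their spread. SHMT1 moved from rank 26 of the 34 members in 2D to rank 16 in 3D, and ASNS from rank 11 to 14.

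Other genes of the same pathways, given here by lists, differed between the arms of the response. The counts stand beside 17.6% called lower and 19.0% called higher of all genes tested. Of 11 amino acid transporters 9 fell and 0 rose, and of 18 cytosolic tRNA synthetases 12 fell and 0 rose. Of 14 other ATF4 targets and stress response genes 7 fell and 1 rose. CEBPB, an inducible partner of ATF4, fell from 354 ± 37.5 to 91.8 ± 33.7 CPM, and KLHL24, an adaptor of a ubiquitin ligase, from 48.4 ± 9.60 to 12.2 ± 5.38 CPM. DDIT4, an inhibitor of mTORC1, rose from 76.9 ± 14.2 to 104 ± 6.37 CPM (log2 0.44, edgeR adjusted p = 0.0321). Without 2D replicate 1 or 2 or 3D replicate 2 or 3, DDIT4 had an edgeR adjusted p of 0.0841, 0.17, 0.0823 and 0.0747, and with length and GC content corrected its log2 difference was 0.037. Of 15 genes for other eIF2 kinases, eIF2, its exchange factor eIF2B and their partners, 3 fell and 2 rose, a share near that of all genes tested. PPP1R15B, the constitutive phosphatase partner of eIF2, fell from 104 ± 8.06 to 52.1 ± 8.96 CPM, and EIF2B1 rose from 34.1 ± 1.35 to 49.5 ± 1.86 CPM.

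Among folate genes outside the members none was called lower. Of 17 tested, 6 rose and 0 fell at the edgeR adjusted threshold, among them TYMS and, named here after their values were seen, GGH, SLC19A1, AMT and GCSH. TYMS, thymidylate synthase, which makes thymidine nucleotides in dividing cells, rose from 81.9 ± 18.0 to 161 ± 14.7 CPM. TYMS is also 1 of the growth markers that rose. Purine synthesis, which consumes formyl-folate, had 6 higher and 1 lower of 13 genes, beside the same shares of all genes tested. PRPS1, which makes the ribose donor, rose from 27.1 ± 1.77 to 45.6 ± 5.03 CPM, and GART, a folate-using enzyme of the pathway, fell from 89.4 ± 1.20 to 66.6 ± 6.68 CPM. The call of GART was lost without 2D replicate 1 or 3 (edgeR adjusted p = 0.063 and 0.0506). ADSSL1, an enzyme of AMP synthesis, rose from 1.15 ± 0.155 to 6.13 ± 1.79 CPM.

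Of 16 genes of the methionine cycle and cysteine metabolism 2 rose and 3 fell, shares near those of all genes tested. MAT2A, which makes the methyl donor S-adenosylmethionine, fell from 623 ± 181 to 328 ± 38.8 CPM, and GCLC, a glutathione synthesis enzyme, from 137 ± 12.6 to 83.2 ± 6.01 CPM. BHMT, which remethylates homocysteine with betaine, rose from 1.21 ± 0.631 to 6.60 ± 3.00 CPM. Of 17 other enzymes of serine, proline, aspartate, glutamine and alanine metabolism 6 rose and 2 fell, beside 19.0% and 17.6% of all genes tested. GOT1, the cytosolic aspartate transaminase, fell from 116 ± 9.66 to 47.0 ± 6.75 CPM. PYCRL, a further proline reductase gene, rose from 5.40 ± 0.630 to 13.8 ± 1.16 CPM.

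**Figure D4:**
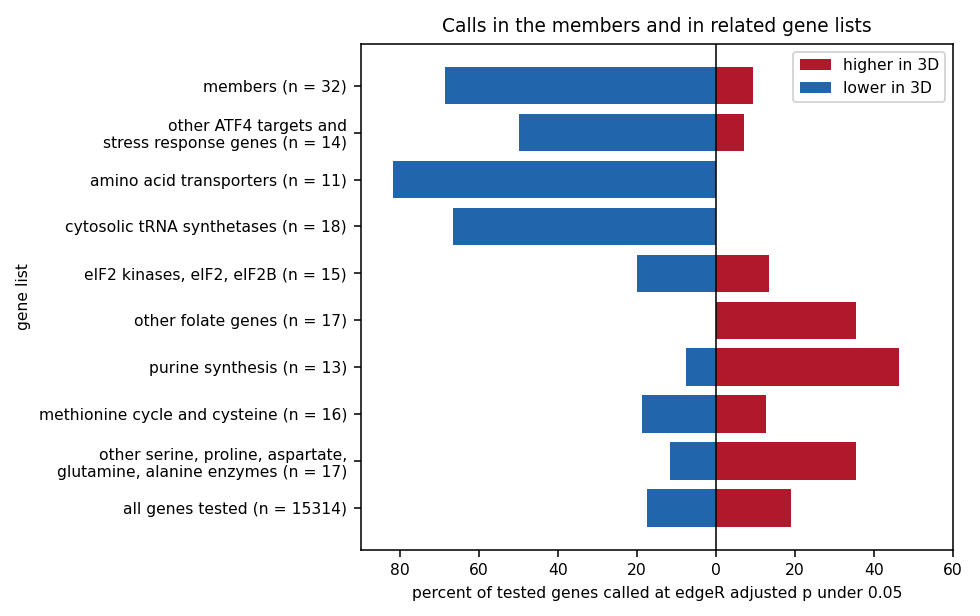
Percent of the tested genes of each list called lower (blue, to the left) or higher (red, to the right) in 3D at an edgeR adjusted p under 0.05, with the number of genes tested. The members (22 of 32 lower), transporters (9 of 11) and tRNA synthetases (12 of 18) extend to the left, and the other folate genes (6 of 17 higher) to the right, beside 17.6% lower and 19.0% higher of all genes tested.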

How the data were processed

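Messenger RNA of 6 HepG2 samples (3 per culture, grouped by their titles) was analysed. Build hg38 and the tools Partek and STAR 2.4.1d were used, per the submitters' processing notes; annotation release, counting settings and strand handling were not given in the sources used here. Values in the authors' deposited table are read numbers per gene in the form of estimated counts, some fractional and none scaled, with a lowest gene total of 9, and were rounded to whole numbers. Totals were 9530795 to 17943513, and 3 counts correspond to 0.167 to 0.298 CPM, which covers counting error only.

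The test was the robust quasi-likelihood test of edgeR 4.0.16 in R 4.3.3 (filterByExpr, TMM, culture as the only term, Benjamini-Hochberg over 15314 genes; called at an adjusted p under 0.05). Standard errors were derived from the F statistic and intervals from its degrees of freedom. The scripts were tested on simulated data. Isozyme ratios used counts plus 2 and exact two-sided permutation tests. Transcript length (longest coding transcript) and GC content came from GENCODE release 29: 16132 genes matched by symbol and 289 by a synonym, and 89.8% of the tested genes had values. RPKM here is CPM per kilobase of that length.

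Every member is named. Values in each library are printed for ATF4, for called members with an absolute log2 fold change of 1 or more, for members called higher and for the member of each role with the lowest adjusted p. From other lists up to 2 called genes per direction with at least 5 CPM qualified for naming; results that need certain withheld genes, among them 1 isozyme pair, are not reported here. Members and lists were chosen with earlier results of these data known. Same-numbered samples did not deviate together (correlations 0.049, −0.009 and −0.076), so the numbers were not taken as pairs. Alternatives were DESeq2 1.42.0, limma-voom (limma 3.58.1), other scalings and filters, the replicate block, a loess correction (span 0.5) for length and GC content, and leaving out libraries.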

Additional observations from a re-analysis of the deposited data

How the results depend on the processing

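Of the 22 members called lower 18, and of the 3 called higher 2 (SHMT1 and MTHFD1), kept their call in all 17 alternatives; the exceptions (ATF4, EIF2AK3, PPP1R15A, PSPH, PYCR1) are given with their values above, and each of the 7 members not called changed its call or its sign in at least 1 alternative. The cause was not tested. The number of members called lower was 21 to 25 over the alternatives that keep every library, and 19 to 23 without 1 library. The number called higher was 2 to 4. The median log2 fold change of the members was −0.90 to −0.66 without 1 library, and with the replicate block it was −0.83, with 22 members lower and 3 higher. With length and GC content corrected it was −0.95. With the replicate block and length and GC content corrected together it was −0.98. Which members reached a log2 fold change of −1 also depended on the setting. Over the 17 alternatives XPOT was at −1.25 to −0.81 and GDF15 at −1.22 to −0.56. The block changed the call of PPP1R15A and DDIT3 and of no other member, and same-numbered samples share only a number. Without 1 library 1938 to 2817 of all genes were called higher and 1828 to 2792 lower. Signs turned for 4 results, among them PYCR1, which was called higher. EIF2AK4 had a log2 difference of 0.013 with upper-quartile scaling, 0.213 with length and GC content corrected, 0.207 with the block as well, and −0.061 to 0.032 without 1 library. PYCR1 was at −0.058 with length and GC content corrected and at −0.050 with the block as well, NUPR1 at −0.20 to 0.53 without 1 library, and the log2 ratio of GPT2 to GPT, 3D minus 2D, ranged from −0.16 to 0.19 without 1 library. Across 13747 genes, which are not independent, the fold change moved with transcript length (Spearman −0.383) and GC content (0.317). The members' median length was 2941 bases, beside 3151 for all genes tested, and their median GC content 51.5%, beside 48.8%. CHAC1 and FGF21 had too few counts to test.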
